A study of Homo sapiens with 6 samples.

Results

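The genes described here are 39 regulators of the human cell cycle: cyclins, cyclin-dependent kinases (CDKs), the CDC25 phosphatases and WEE1-type kinases that switch CDK1, the E2F factors with their pocket protein partners, and the ubiquitin ligase components that end each phase. They were chosen by symbol, and all 39 were found among the 58825 genes of the deposited table and passed the filter on low counts. The RNA was from the triple-negative breast cancer line MDA-MB-231, kept for 24 h with the solvent DMSO or with 0.2 µM of disulfiram and copper together (DSF/Cu). Each group held 3 repeats, each repeat pooled the cells of 3 wells, and both groups had the same serum-containing medium. No group had disulfiram or copper alone, 1 dose and 1 time were sampled, and the labels do not say that the repeats were separately grown, so the p-values cover the spread of these libraries, and that spread may be technical.

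A dividing cell passes from one phase to the next as successive cyclins bind and activate CDKs. D cyclins with CDK4 and CDK6, then E cyclins with CDK2, phosphorylate the pocket proteins and free the E2F factors, which turn on the genes of DNA replication. Later, the MuvB complex with B-MYB and FOXM1 turns on cyclin B, CDC20 and other genes of mitosis, and ubiquitin ligases then destroy the cyclins. MDA-MB-231 cells cycle without hormone receptor signals, and the estrogen and progesterone receptor genes were close to silent here. *ESR1* had a mean FPKM (fragments scaled for gene length and library size, a level comparable between genes) of 0.0062 in DMSO and 0.0155 in DSF/Cu, and *PGR* 0.0435 and 0.0222.

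Total counts ran from 55563223 to 70883177 per library. Mitochondrial genes took 7.21 to 7.80% of counts in DMSO and 8 to 8.54% in DSF/Cu, ranges that did not overlap, and their part in the results was not tested. Of 4 markers of mesenchymal-like breast cancer lines, *VIM* (mean FPKM 574 in DMSO and 423 in DSF/Cu), *AXL* (193 and 101.7) and *CD44* (26.5 and 27.0) were expressed, and *SPARC* was nearly silent (0.0497 and 0.127). *VIM* and *AXL* were called lower (-0.27 ± 0.07, adjusted p = 0.0208, and -0.76 ± 0.05, adjusted p = 1.39e-04). Of the luminal markers, *KRT18* (47.2 and 27.7), *ERBB2* (6.06 and 3.075) and *EPCAM* (2.60 and 1.425) were expressed. All were called lower (-0.60 ± 0.07, adjusted p = 9.45e-04, -0.81 ± 0.09, adjusted p = 9.37e-04, and -0.70 ± 0.20, adjusted p = 0.0376). *GATA3* (0.745 and 0.806) and *FOXA1* (0.122 and 0.182) were low, and neither was called, nor were *ESR1* and *PGR*. The T cell marker *CD3E* and the fat cell marker *ADIPOQ* had no count in any library, and *PTPRC*, carried by white blood cells, had none in DMSO and a mean FPKM of 0.00678 after DSF/Cu. *CD68*, a lysosomal protein gene used as a macrophage marker, was at a mean FPKM of 62.0 and 52.5. The part of other cell types in the results was not tested.

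Promoters are shown first, chosen after the changes were seen so as to include genes that moved in opposite directions. The 150 bases before the transcript start are given 5′ to 3′ on the gene's strand, from RefSeq (GRCh38.p14). Capitals mark a CCAAT box (CCAAT, or ATTGG on the other strand), a CHR (TTTGAA or TTCGAA, or TTCAAA on the other strand), the element through which MuvB holds genes of mitosis, or an E2F site (TTTCCCGC, TTTGGCGC, TTTCGCGC or TTTGCCGC, on either strand). The first 3 genes fell after DSF/Cu and encode cyclin B1 (chr5:69167000-69167149, + strand), cyclin B2 (chr15:59104996-59105145, + strand) and the mitotic exit activator CDC20 (chr1:43358831-43358980, + strand). *CKS2*, which encodes a small CDK-binding subunit (chr9:89311045-89311194, + strand), rose. *E2F1* (chr20:33686386-33686535, − strand) fell, and its family member *E2F7* (chr12:77065570-77065719, − strand) rose.
CCNB1: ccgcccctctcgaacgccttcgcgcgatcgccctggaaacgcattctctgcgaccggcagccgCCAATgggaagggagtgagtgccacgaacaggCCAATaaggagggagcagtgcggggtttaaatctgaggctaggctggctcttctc
CCNB2: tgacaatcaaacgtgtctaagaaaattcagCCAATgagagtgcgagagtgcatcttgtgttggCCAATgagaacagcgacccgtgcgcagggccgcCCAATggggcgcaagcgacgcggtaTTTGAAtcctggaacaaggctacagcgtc
CDC20: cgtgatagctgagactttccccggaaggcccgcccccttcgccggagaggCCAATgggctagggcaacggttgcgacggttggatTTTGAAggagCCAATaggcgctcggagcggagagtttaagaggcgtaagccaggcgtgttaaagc
CKS2: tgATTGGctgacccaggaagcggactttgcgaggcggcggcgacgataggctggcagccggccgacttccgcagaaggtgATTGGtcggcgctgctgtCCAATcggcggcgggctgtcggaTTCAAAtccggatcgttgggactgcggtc
E2F1: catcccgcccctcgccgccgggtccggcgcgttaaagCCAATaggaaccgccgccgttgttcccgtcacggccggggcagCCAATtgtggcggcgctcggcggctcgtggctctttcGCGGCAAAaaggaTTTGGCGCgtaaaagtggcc
E2F7: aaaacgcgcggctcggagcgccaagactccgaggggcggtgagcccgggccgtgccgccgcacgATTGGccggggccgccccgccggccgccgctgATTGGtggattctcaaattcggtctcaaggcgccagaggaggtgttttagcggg

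A CHR began at base -29 from the start in both *CCNB2*, which fell, and *CKS2*, which rose. It lay on the gene's strand in *CCNB2* and on the other strand in *CKS2*. The nearest CCAAT box upstream of it began at -54 and -52. *CKS1B*, which was not called, had a like layout, with a CHR at -30 and a CCAAT box at -54. The capitals of *E2F1* hold 2 E2F sites, at -33 and -20, and none of the searched E2F sites lay in the *E2F7* window. Promoters of 300 bases (250 before the start and 50 after) were matched for 30 members, and those of *CCND1*, *CCND2*, *CCNE2*, *CDK2*, *E2F5*, *E2F8*, *WEE1*, *PKMYT1* and *FOXM1* were not. An E2F site was found in 7 of the 30, against 3.33% of 27305 RefSeq promoters of the same length. A CHR was found in 9 of the 30, against 16.6%, and a CCAAT box in 12, against 35.7%. By direction, a CHR was present in 4 of 15 lowered, 1 of 2 raised and 4 of 13 uncalled members. In the same order, a CCAAT box was present in 7 of 15, 2 of 2 and 3 of 13. An E2F site was present in 4 of 15, 0 of 2 and 3 of 13. A heat shock element, searched on both strands, was in 0 of the 30 windows and in 0.487% of all. These matches describe letters in a window and were not tested against the changes.

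**Figure D1:**
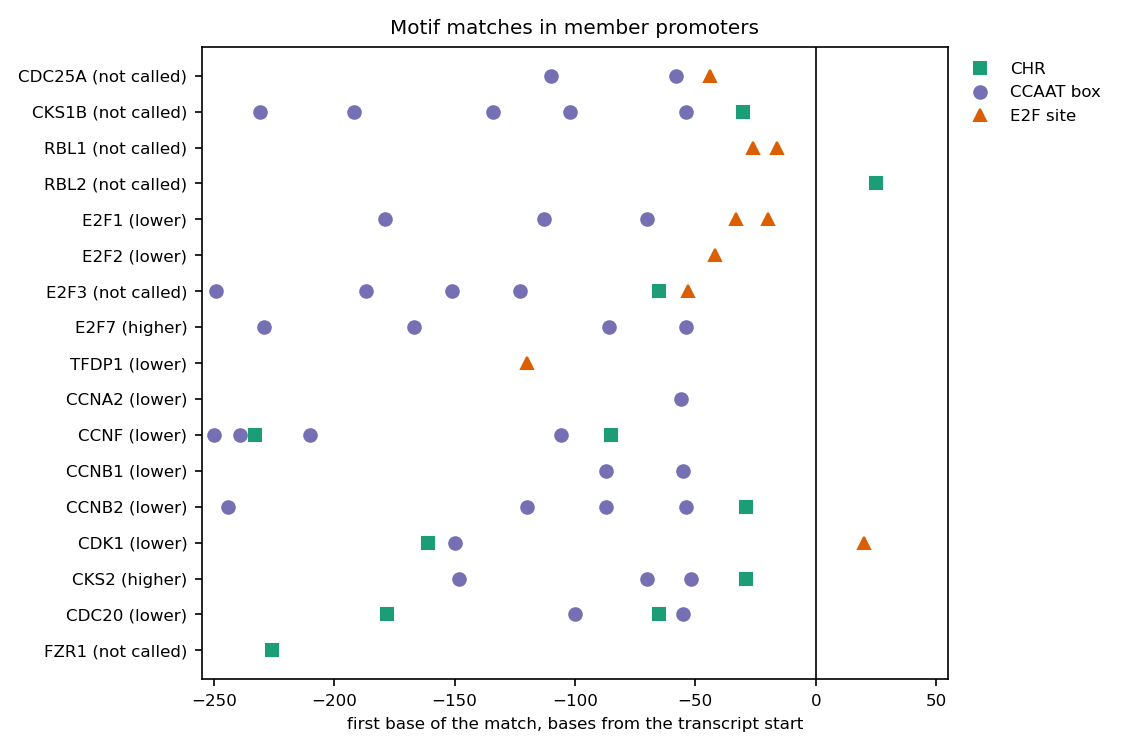
Positions of CHR, CCAAT box and E2F site matches in member promoters with at least 1 match. The x axis is the first base of the match in bases from the transcript start, and each row is a gene with its call after DSF/Cu. CCNB2 (lower) and CKS2 (higher) both have a CHR at -29, on opposite strands.

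After DSF/Cu, genes acting in S phase, G2 and mitosis were mostly lower, and most of those of G1 were not called. Of the 39 members, 20 fell and 3 rose at a Benjamini-Hochberg adjusted p under 0.05 (edgeR's quasi-likelihood test over all genes). Over all 18229 genes tested, 16.8% were lower and 18.5% higher by the same rule, 35.2% in either direction. With total-count scaling, 23 members and 4856 of all genes were lower, and 3 members and 2356 of all genes were higher. With FPKM brought to 1 sum per library (limma, 38 members and 11595 genes tested), 26 members and 5380 of all genes were lower. The members' median log2 change was -0.35, against 0.002 over all genes. For 27 of the 39 the 3 DSF/Cu libraries did not overlap the 3 DMSO libraries in CPM (counts scaled to library size with TMM factors, which take most genes as unchanged), against 51.2% of all genes. Of 13 members with roles in S phase and G2, in mitotic entry or in mitotic exit, 10 fell and 1 rose, with a median of -0.87. Of 14 members with roles in G1, at the G1/S border or as pocket proteins, 4 fell and 1 rose, with a median of -0.16. The other 9 were not called, so the called share of this set was near the 35.2% of all genes. The other 12, the E2F factors and the G2/M transcription regulators *FOXM1*, *MYBL2* and *LIN9*, stand in neither set, and of them 6 fell and 1 rose, with a median of -0.16. The difference between these phases was not tested. The 3 members that rose were *CCNE2*, *E2F7* and *CKS2*, and with FPKM brought to 1 sum per library their calls were lost in limma (0.14, 0.20 and 0.05 on the log2 scale, adjusted p = 0.101, 0.0624 and 0.271). In bulk RNA, fewer cells in a phase and less RNA per cell cannot be told apart.

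**Figure D2:**
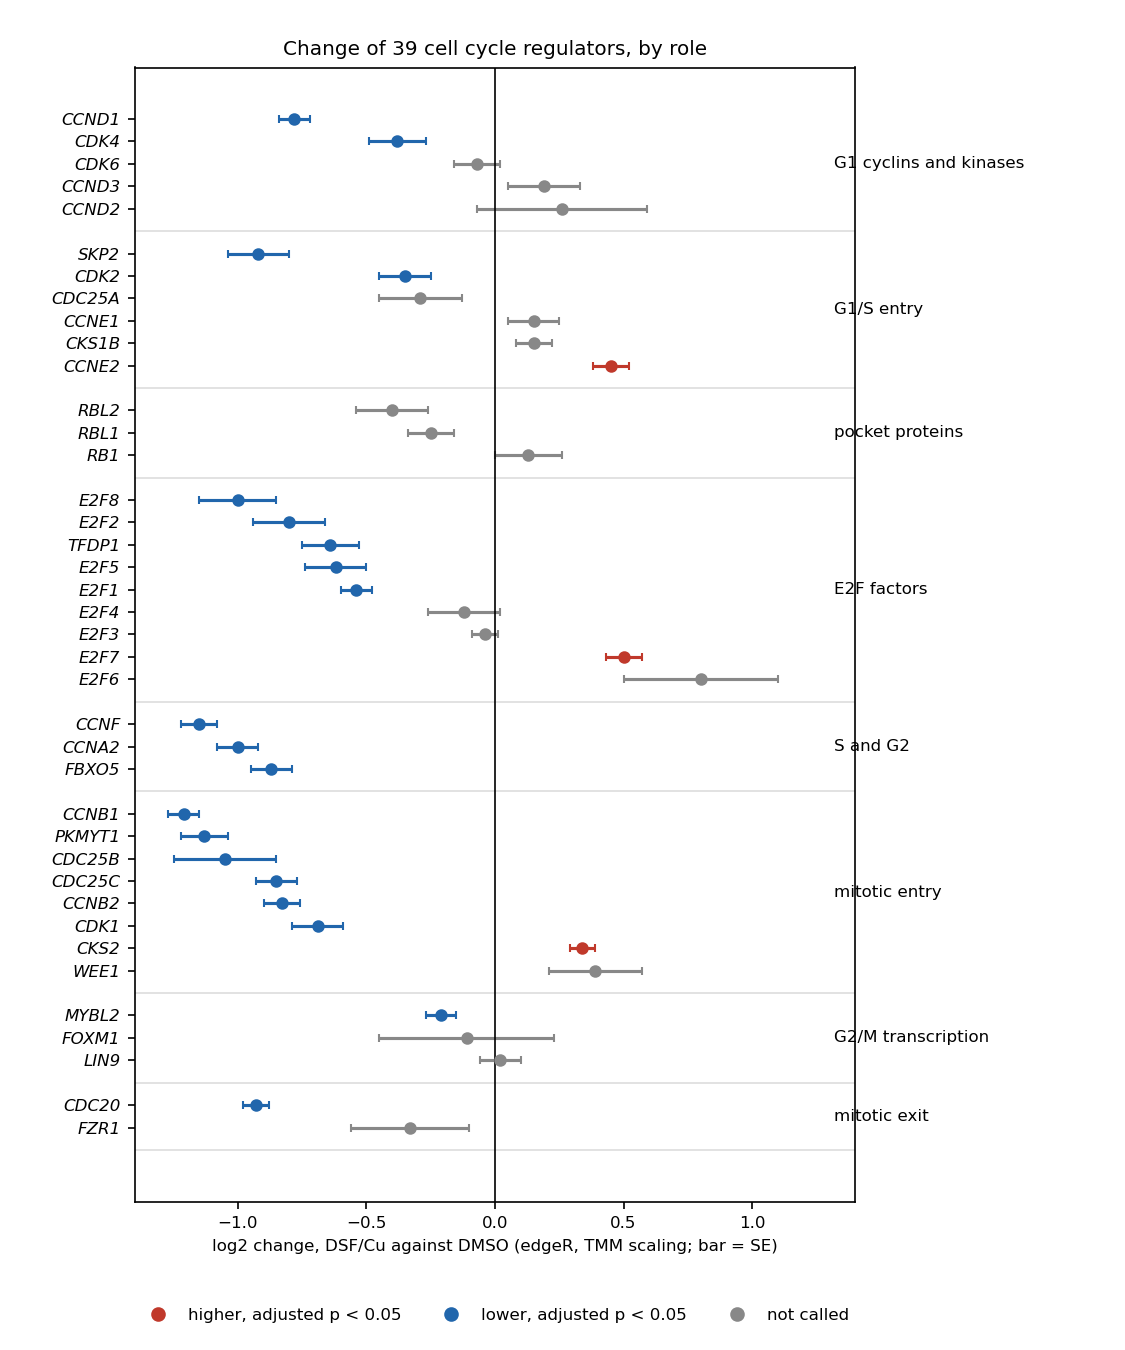
Log2 change of each of the 39 members after DSF/Cu against DMSO (x axis), grouped by role, with bars for the SE and 3 libraries per group. All 3 members in the S and G2 role lie below -0.8, while the 3 pocket proteins were not called.

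Among the D cyclins, which start the cycle in response to growth signals, only *CCND1* passed the test. *CCND1*, on chr11:69641087-69654474, held 468, 489.8 and 465 CPM in the 3 DMSO libraries and 261, 293 and 276 after DSF/Cu. The groups lay far apart, and the gene fell by 0.78 ± 0.06 (log2, SE, adjusted p = 2.18e-04). *CCND3* held 87.8, 91.7 and 99.0 CPM in DMSO and 129.6, 90.0 and 97.4 after DSF/Cu, with only the first DSF/Cu library above the DMSO range, and was not called (0.19 ± 0.14, adjusted p = 0.355). *CCND2* was barely expressed, at 0.97 to 2.06 CPM in DMSO and 1.80 to 2.40 after DSF/Cu (0.26 ± 0.33, adjusted p = 0.602). Within each library, *CCND1* gave 85.8 ± 0.93% of the summed FPKM of the 3 D cyclins in DMSO and 75.6 ± 4.55% in DSF/Cu (SD, n = 3), and the share of *CCND3* was 14.0 ± 0.88% and 24.0 ± 4.56%. The sum itself was 103.2 in DMSO and 60.6 after DSF/Cu, and *CCND3* had a mean FPKM of 14.4 and 14.5. Its higher share thus went with a lower sum.

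Of the D cyclins' kinase partners, *CDK4* fell and *CDK6* was not called. *CDK4* held 158, 156 and 128 CPM in DMSO and 123, 114.5 and 101.4 after DSF/Cu, so that the third DMSO library lay just above the highest DSF/Cu library. It fell by 0.38 ± 0.11 (adjusted p = 0.0347), a call lost on leaving out DMSO replicate 1 (adjusted p = 0.1), DMSO replicate 2 (0.103), DSF/Cu replicate 2 (0.084) or DSF/Cu replicate 3 (0.0948). *CDK4* overlaps *TSPAN31*, whose log2 change was 0.15 ± 0.20. *CDK6*, its close relative, held 109.2, 101.3 and 109.4 CPM in DMSO and 88.9, 107 and 109.5 after DSF/Cu, and its groups overlapped (-0.07 ± 0.09, adjusted p = 0.603).

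At the G1/S border, 1 of the 2 E cyclins rose and the other was not called. *CCNE2*, cyclin E2, held 43.7, 47.6 and 49.7 CPM in DMSO and 62.8, 63.4 and 66.2 after DSF/Cu, every treated library above every control. It rose by 0.45 ± 0.07 (adjusted p = 0.0037). Its locus overlaps *INTS8* and *NDUFAF6* on the other strand, and the strand setting of the counting is not given in the sources used here, so reads of the overlap cannot be told apart. *INTS8* was lower (-0.31 ± 0.09, adjusted p = 0.0325), and *NDUFAF6* was not called (-0.30 ± 0.12, adjusted p = 0.105). *CCNE1*, cyclin E1, held 29.4, 31.3 and 31.4 CPM in DMSO and 38.1, 33.4 and 30.6 after DSF/Cu, groups that overlapped (0.15 ± 0.10, adjusted p = 0.281).

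*CDK2*, the kinase of cyclins E and A, held 46.6, 53.7 and 43.7 CPM in DMSO and 41.4, 35.8 and 35.7 after DSF/Cu. It fell by 0.35 ± 0.10 (adjusted p = 0.0408), a call lost without DMSO replicate 1 (adjusted p = 0.0784), DMSO replicate 2 (0.111), DSF/Cu replicate 2 (0.117) or DSF/Cu replicate 3 (0.114), and with the replicate block (0.0733). *SKP2*, the ligase subunit that marks the CDK inhibitor p27 for destruction, showed the largest fall of this role. It held 27.5, 23.4 and 24.6 CPM in DMSO and 12.2, 12.4 and 15.2 after DSF/Cu, without overlap (-0.92 ± 0.12, adjusted p = 0.00196). *CKS1B*, the cofactor that SKP2 needs to bind p27, was not called (0.15 ± 0.07, adjusted p = 0.156), and neither was *CDC25A*, the phosphatase that activates CDK2 (-0.29 ± 0.16, adjusted p = 0.207).

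**Figure D3:**
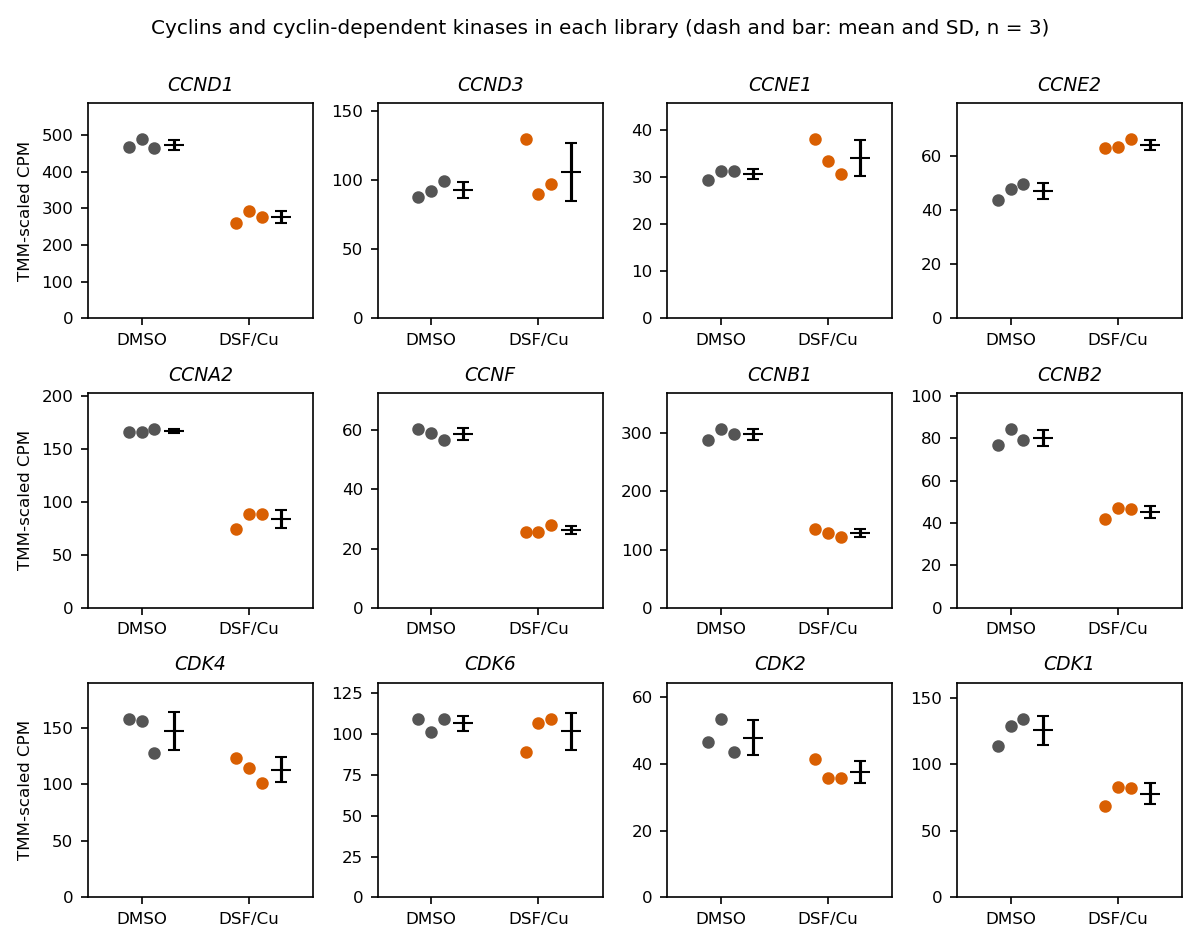
TMM-scaled CPM (y axis, from 0) of 8 cyclins and 4 CDKs in each of the 3 DMSO and 3 DSF/Cu libraries, with points for libraries and the mean and SD beside them. CCNE2 lies higher in all 3 DSF/Cu libraries, while CCNA2, CCNF, CCNB1 and CCNB2 lie lower in all 3.

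None of the pocket proteins, which hold E2F factors inactive, was called in edgeR: at an unadjusted p under 0.05, 2 of 3 were lower, and DESeq2 called 1 of 3 lower. *RB1*, the retinoblastoma gene, had a mean of 79.5 ± 11.2 CPM in DMSO and 86.9 ± 10.9 after DSF/Cu (SD, n = 3; 0.13 ± 0.13, adjusted p = 0.508). *RBL1* (p107) had log2 change -0.25 ± 0.09 (adjusted p = 0.0775), and *RBL2* (p130), the pocket protein of resting cells, -0.40 ± 0.14 (adjusted p = 0.0711). The 2 groups did not overlap for either gene. Of 15 alternative settings, *RBL1* was called lower in 5 and *RBL2* in 6. With total-count scaling, where the median of all genes was -0.182, *RBL1* was at -0.44 (edgeR adjusted p = 0.0134) and *RBL2* at -0.58 (0.0228). DESeq2 called *RBL2* lower (-0.40, adjusted p = 0.0421) and did not call *RBL1*. *RBL2* overlaps *AKTIP* on the other strand, whose log2 change was 0.04 ± 0.11.

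The E2F family moved in both directions. Of 9 genes, counting the dimer partner *TFDP1*, 5 fell and 1 rose. Among the activators, *E2F1* fell by 0.54 ± 0.06, from 103 ± 2.74 to 70.7 ± 2.62 CPM (SD, n = 3), and *E2F2*, the least abundant, held 11.2, 11.7 and 10.5 CPM in DMSO and 6.54, 5.53 and 7.17 after DSF/Cu (-0.80 ± 0.14, adjusted p = 0.00531). *E2F3* had log2 change -0.04 ± 0.05 (adjusted p = 0.611), and was called lower with total-count scaling (-0.22, edgeR adjusted p = 0.0131), where the median of all genes was -0.182. *TFDP1* encodes DP1, a DP partner with which E2F1 to E2F6 bind DNA. It held 190.1, 207 and 196 CPM in DMSO and 108, 129.9 and 143 after DSF/Cu, all treated libraries below all controls (-0.64 ± 0.11, adjusted p = 0.00458).

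The repressor E2Fs divided as well. *E2F8* and *E2F7* encode the atypical E2Fs, which bind DNA without a DP partner and shut off E2F targets late in S phase. *E2F8* held 43.0, 49.4 and 37.4 CPM in DMSO and 18.01, 22.9 and 23.9 after DSF/Cu, and fell by 1.00 ± 0.15 (adjusted p = 0.00294). *E2F7* held 74.1, 65.6 and 65.3 CPM in DMSO and 99.8, 93.7 and 97.4 after DSF/Cu, and rose by 0.50 ± 0.07 (adjusted p = 0.00231). The ratio of *E2F7* to *E2F8* counts within a library, which does not depend on how libraries are scaled, was 1.72, 1.33 and 1.75 in DMSO and 5.54, 4.10 and 4.07 after DSF/Cu. It was thus 2.85-fold higher, without overlap between groups. That had to follow, since *E2F7* and *E2F8* each separated the groups, in opposite directions. The two-sided exact permutation test gave p = 0.1 (n = 3 per group), the smallest that 3 against 3 libraries can give. For 8 ratios chosen after the values were seen, this exact permutation test gave p = 0.1 each, and 0.1 after Benjamini-Hochberg adjustment. The outcome was likewise fixed for *E2F7* to *E2F1*, *CCNE2* to *CCNA2*, *CKS2* to *CCNB2* and *WEE1* to *PKMYT1*. For these ratios the test adds nothing to the single-gene results.

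Of the other repressors, *E2F5* fell by 0.62 ± 0.12 (adjusted p = 0.00738), *E2F4*, a partner of pocket proteins in resting cells, was not called (-0.12 ± 0.14, adjusted p = 0.543), and *E2F6*, which works without pocket proteins, was uneven. *E2F6* held 17.8, 20.3 and 8.64 CPM in DMSO and 29.5, 23.6 and 28.4 after DSF/Cu, without overlap but with a wide DMSO range (0.80 ± 0.30, adjusted p = 0.0854). It was called higher without DMSO replicate 3 (0.51, edgeR adjusted p = 0.0426) and with DESeq2 (0.80, adjusted p = 0.0158). *E2F5* overlaps *C8orf59* on the other strand, whose log2 change was -0.02 ± 0.10.

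The summed FPKM of *E2F1* to *E2F8* was 102.6 ± 6.75 in DMSO and 79.4 ± 2.52 after DSF/Cu (SD, n = 3), so a share can rise while the gene's own level does not. As shares of that sum within a library, *E2F1* made up 33.7 ± 1.89% in DMSO and 26.5 ± 1.17% after DSF/Cu (SD, n = 3). *E2F7* went from 9.5 ± 0.65% to 15.5 ± 0.62%, *E2F6* from 3.3 ± 1.16% to 6.7 ± 0.80%, and *E2F8* from 9.2 ± 0.81% to 5.3 ± 0.71%. For each of these 4 genes the groups did not overlap, nor did they for *E2F2* and *E2F5*, while the shares of *E2F3* and *E2F4* overlapped.

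**Figure D4:**
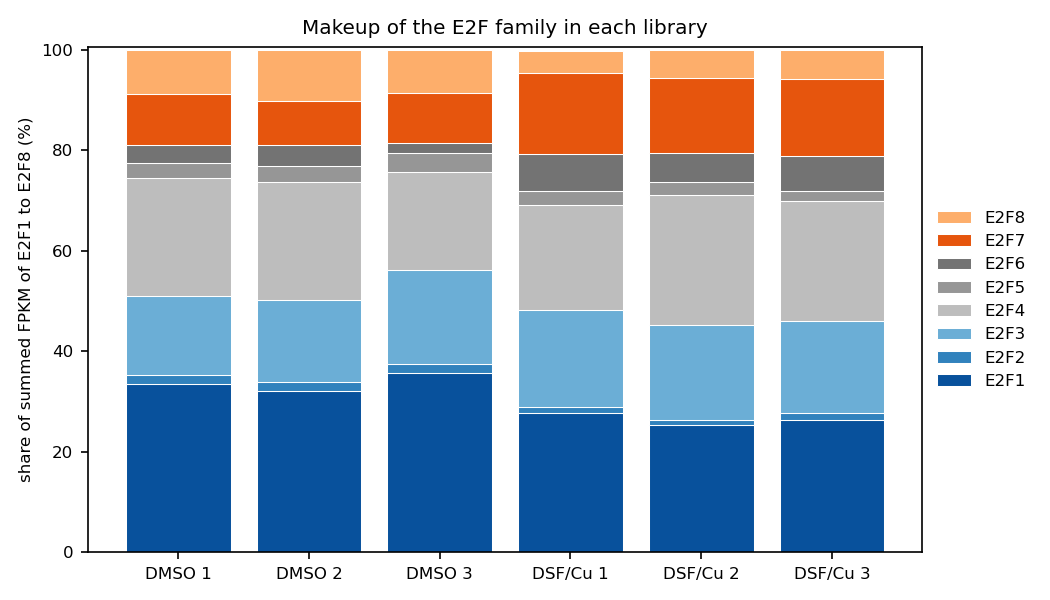
Share of each E2F gene in the summed FPKM of E2F1 to E2F8 (y axis, percent) in each of the 6 libraries. The E2F7 band is 8.8 to 10.0% in the DMSO libraries and 15.0 to 16.2% in the DSF/Cu libraries.

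All 3 genes of S phase and G2 fell. *CCNA2*, cyclin A2, which drives DNA synthesis with CDK2 and then entry into mitosis with CDK1, held 165.8, 165.9 and 169 CPM in DMSO and 73.9, 88.1 and 88.5 after DSF/Cu. The DMSO libraries lay within 3 CPM of each other, and every treated library was far below them (-1.00 ± 0.08, adjusted p = 3.27e-04). *CCNA2* overlaps *EXOSC9* on the other strand, which was not called (0.19 ± 0.08, adjusted p = 0.103). *CCNF*, cyclin F, a ligase subunit that binds no CDK, held 60.5, 59.2 and 56.5 CPM in DMSO and 25.6, 25.7 and 27.9 after DSF/Cu (-1.15 ± 0.07, adjusted p = 1.16e-04). *FBXO5* (EMI1), which blocks the anaphase-promoting complex until mitosis, held 54.7, 61.0 and 57.8 CPM in DMSO and 29.8, 34.0 and 31.3 after DSF/Cu (-0.87 ± 0.08, adjusted p = 4.99e-04). The ratio of *CCNE2* to *CCNA2* counts was 0.264, 0.287 and 0.295 in DMSO and 0.85, 0.72 and 0.748 after DSF/Cu, 2.74-fold higher.

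The kinase that starts mitosis, CDK1 with cyclin B, had lower mRNA for both parts. *CCNB1*, on chr5:69167135-69178245, held 289, 308 and 299 CPM in DMSO and 136, 129 and 122 after DSF/Cu. It fell by 1.21 ± 0.06 (adjusted p = 5.95e-05), the steepest fall of the 39 under TMM scaling. *CCNB2* held 77.0, 84.5 and 79.3 CPM in DMSO and 42.1, 47.0 and 46.5 after DSF/Cu (-0.83 ± 0.07, adjusted p = 4.17e-04), so the share of *CCNB1* in the FPKM of the 2 B cyclins was 80.8 ± 0.29% and 76.3 ± 1.99% (SD, n = 3). *CDK1* held 114, 129 and 134.5 CPM in DMSO and 69.0, 83.0 and 82.3 after DSF/Cu, and fell by 0.69 ± 0.10 (adjusted p = 0.00278).

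Both sides of the switch on CDK1 were lower in part. *CDC25B* and *CDC25C* encode phosphatases that turn CDK1 on. *CDC25B* held 97.9, 103 and 133 CPM in DMSO and 44.1, 47.6 and 69.7 after DSF/Cu (-1.05 ± 0.20, adjusted p = 0.00855), with the third library the highest in both groups, and *CDC25C* fell by 0.85 ± 0.08. *PKMYT1* (MYT1) and *WEE1* encode kinases that hold CDK1 off. *PKMYT1* held 37.4, 34.1 and 30.7 CPM in DMSO and 15.9, 15.5 and 15.4 after DSF/Cu, and fell by 1.13 ± 0.09 (adjusted p = 3.71e-04). It overlaps *PAQR4* on the other strand, which varied widely (-1.02 ± 0.60, adjusted p = 0.237). *WEE1* held 25.1, 22.1 and 16.5 CPM in DMSO and 32.1, 25.4 and 26.0 after DSF/Cu, and was not called (0.39 ± 0.18, adjusted p = 0.137), although its groups did not overlap. The ratio of *WEE1* to *PKMYT1* counts was 0.671, 0.649 and 0.536 in DMSO and 2.02, 1.64 and 1.69 after DSF/Cu, 2.88-fold higher, the highest fold of the 8 ratios.

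*CKS2*, which tethers CDK1 to its substrates, was the one gene of the mitotic entry role that rose. It held 117, 126 and 125.5 CPM in DMSO and 160.0, 153 and 154.5 after DSF/Cu (0.34 ± 0.05, adjusted p = 0.00381). *CKS2* and *CKS1B* are close paralogs, so counts may be split between them. *CCNB2* has a CHR at the same distance from its start, on the opposite strand. The ratio of *CKS2* to *CCNB2* was 1.52, 1.49 and 1.58 in DMSO and 3.80, 3.26 and 3.32 after DSF/Cu, 2.26-fold higher. The other 4 of the 8 ratios were higher by smaller factors: *E2F7* to *E2F1* 2.07-fold, *CCND3* to *CCND1* 1.93-fold, *CCNE2* to *CCNE1* 1.23-fold and *CKS2* to *CKS1B* 1.15-fold. Per length, *CKS2* had the highest level of the 39 in both groups, with a mean FPKM of 179.7 in DMSO and 202.7 after DSF/Cu. *CDC20* (115.6 and 53.9) and *CCNB1* (110.7 and 42.4) followed it in DMSO, and *CKS1B* (68.5 and 67.4) and *MYBL2* (71.1 and 54.5) after DSF/Cu.

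Of the 3 members that turn on genes of mitosis, *MYBL2* fell and *FOXM1* and *LIN9* were not called. *MYBL2* (B-MYB) held 229, 212 and 215 CPM in DMSO and 197, 190.5 and 179 after DSF/Cu and fell by 0.21 ± 0.06 (adjusted p = 0.0313). That call was lost without any 1 of 5 libraries, with adjusted p = 0.0782 (DMSO replicate 1), 0.0554 (DMSO replicate 2), 0.0643 (DMSO replicate 3), 0.0836 (DSF/Cu replicate 2) and 0.0943 (DSF/Cu replicate 3). *LIN9*, a core subunit of MuvB, was not called (0.02 ± 0.08, adjusted p = 0.851). *FOXM1*, described because 1 of its libraries stood apart, held 60.3, 56.0 and 55.1 CPM in DMSO and 40.0, 85.2 and 33.0 after DSF/Cu. The second DSF/Cu library lay above all controls and the other 2 below them, and the gene was not called (-0.11 ± 0.34, adjusted p = 0.828). Without DSF/Cu replicate 2 the log2 change was -0.64 (edgeR adjusted p = 0.0118). *RHNO1*, which overlaps *FOXM1* on the other strand, fell by 0.67 ± 0.10 (adjusted p = 0.00322).

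CDC20 and CDH1 (*FZR1*) activate the anaphase-promoting complex in turn, first in mitosis and then in G1. *CDC20* held 260, 253 and 261.5 CPM in DMSO and 135, 133 and 137.5 after DSF/Cu, with little spread in either group, and fell by 0.93 ± 0.05 (adjusted p = 5.7e-05). *FZR1* held 45.6, 23.9 and 31.2 CPM in DMSO and 28.2, 24.1 and 27.7 after DSF/Cu, groups that overlapped (-0.33 ± 0.23, adjusted p = 0.311), and its locus overlaps *MFSD12* on the other strand (0.09 ± 0.06). The spread between libraries was modest for most members: the median coefficient of variation of CPM was 5.69% in DMSO and 10.0% after DSF/Cu. It exceeded 25% for 3 genes in DMSO (*E2F6*, *CCND2* and *FZR1*) and for 2 after DSF/Cu (*FOXM1* and *CDC25B*).

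Other cell cycle genes were counted in the same test, with each list described by its counts and median, to be read against the 18.5% of all genes that were higher and the 16.8% that were lower. Of 20 target genes of FOXM1 and B-MYB, 17 fell and none rose (at an unadjusted p under 0.05, 18 and 0, and with DESeq2 17 and 0), with a median of -0.70. The kinesin gene *KIF20A* and the spindle gene *DLGAP5* fell by 1.41 ± 0.08 and 1.07 ± 0.06, and the spindle assembly factor gene *TPX2* by 0.71 ± 0.04. Of 21 E2F target genes of S phase, 14 fell and none rose (14 and 0 at an unadjusted p under 0.05 in edgeR and with DESeq2), with a median of -0.36. *UHRF1*, which keeps DNA methylation through replication, fell by 0.82 ± 0.06, and the helicase subunit genes *MCM5* and *MCM6* by 0.76 ± 0.06 and 0.65 ± 0.06.

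Of 11 mitotic and checkpoint kinases, 6 fell and none rose (6 and 0 at an unadjusted p under 0.05 in edgeR and with DESeq2), with a median of -0.46. *PLK1*, which activates CDC25 and cyclin B, was 2.69-fold lower (-1.43 ± 0.10), *NEK2* fell by 0.61 ± 0.07 and *BUB1* by 0.45 ± 0.05. Of 7 MuvB and DREAM partners, 3 rose and 1 fell, the latter near the share of all genes, with a median of 0.50. *LIN54*, the subunit that reads the CHR, rose by 1.01 ± 0.08, *TFDP2*, the other DP partner of E2Fs, by 0.39 ± 0.07, and *MYBL1* (A-MYB) fell by 0.86 ± 0.06.

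The ligases were mixed. Of 16 genes of the anaphase-promoting complex and its E2 enzymes, 4 rose and 6 fell (median -0.18). By adjusted p the first 3 were the E2 gene *UBE2S* at -0.75 ± 0.09, *ANAPC4* at -0.52 ± 0.07 and *ANAPC5* at -0.45 ± 0.07. The 4 that rose, named after their values were seen, were *ANAPC10* (0.84 ± 0.20, the widest change of the list), *ANAPC15* (0.54 ± 0.15), *CDC26* (0.49 ± 0.10) and *CDC23* (0.36 ± 0.06). Of 6 SCF ligase genes, 3 rose and 1 fell, the latter at the share of all genes (median 0.22). *FBXW7*, the subunit that marks cyclin E for destruction, rose by 1.14 ± 0.11, *SKP1* by 0.51 ± 0.08, and the scaffold gene *CUL1* fell by 0.20 ± 0.05. Of 19 other cyclins and their CDKs, mostly with roles in transcription, 5 rose and 1 fell (median 0.21), so that the called share was no higher than the 35.2% of all genes. At an unadjusted p under 0.05 in edgeR 8 were higher and 1 lower, and DESeq2 called 6 and 1. Those that rose included *CCNK* (2.46-fold higher), *CCNG2* (1.31 ± 0.16) and *CCNL1* (0.82 ± 0.10).

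Among 6 tested CDK inhibitors and related genes, 1 rose, near the share of all genes, and 3 fell (median 0.22). *CDKN1C* (p57) went from 0.853, 0.686 and 1.38 CPM in DMSO to 61.2, 46.9 and 49.2 after DSF/Cu (5.75 ± 0.29). *CDKN3*, a phosphatase of CDK2, fell by 0.75 ± 0.07, and *CDKN2C* (p18) by 0.99 ± 0.11. *CDKN1B*, the gene of p27, fell by 0.46 ± 0.12 (adjusted p = 0.0221), and its groups did not overlap. *CDKN1A* (p21), named after its values were seen, held 150.1, 39.7 and 145 CPM in DMSO and 330.2, 68.9 and 286 after DSF/Cu, the second library lowest in both groups, and was not called (1.03 ± 0.68, adjusted p = 0.295).

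**Figure D5:**
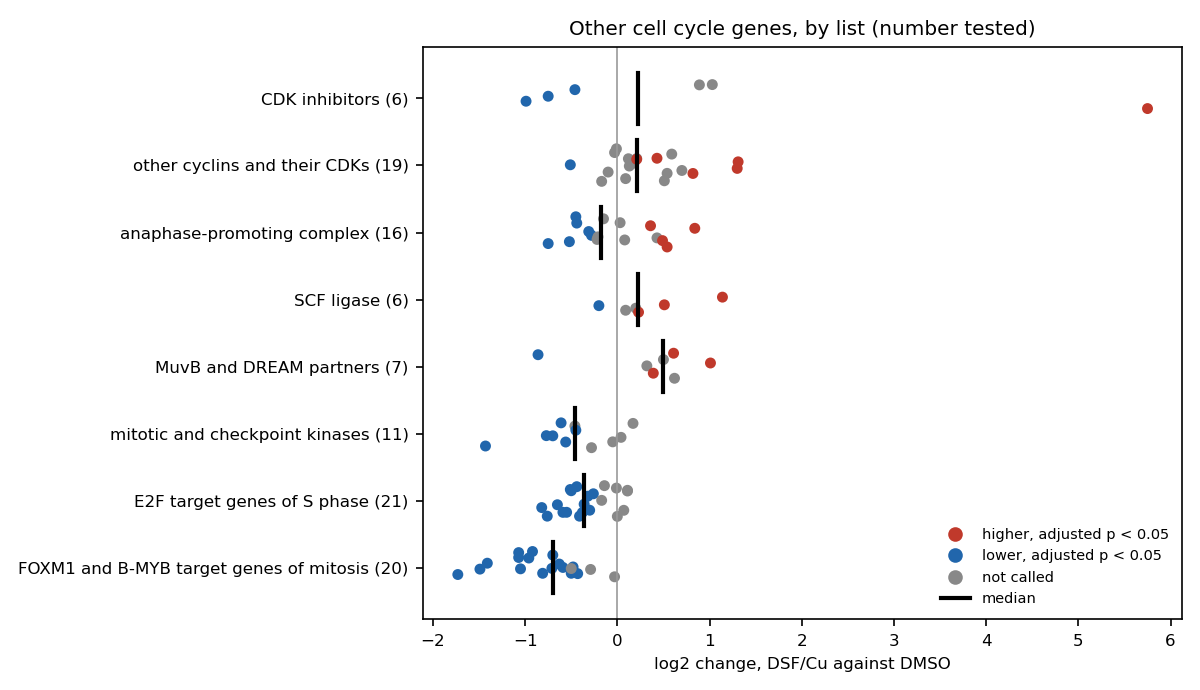
Log2 change after DSF/Cu of the tested genes of 8 further cell cycle lists (x axis), with a black line at each list's median. The mitosis list lies to the left of 0 with a median of -0.70, and CDKN1C lies far to the right at 5.75.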

How the data were processed

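Poly(A) RNA was sequenced as paired-end libraries, 3 in DMSO and 3 in DSF/Cu. Columns headed Control were taken as DMSO, since the labels hold no other control. The authors deposited 1 table with whole-number counts per gene and FPKM values per library, per the file headers. Bowtie 0.12.2, HISAT2 2.0 and StringTie 1.3.0 are named, with no roles, per the submitters' processing notes. Their only build is mm8, of the mouse, but 58552 of 58825 gene IDs, and all 39 members, occur in human GENCODE 29 (GRCh38), where 15 members have the same start and end. Gene positions are those of the table. Which program counted reads, whether by strand and with which annotation is not given in the sources used here.

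Counts were filtered (filterByExpr, 18229 genes), scaled by TMM and tested with edgeR 4.0.16 (quasi-likelihood F test, two-sided) in R 4.3.3, with Benjamini-Hochberg adjustment over all genes and calls under 0.05. SE is the absolute log2 change over the square root of F. DESeq2 1.42.0 and limma 3.58.1 (log2 of FPKM plus 1 or 0.1, mean FPKM of at least 1) served as alternatives. Levels between genes use FPKM as deposited. These values lack the TMM scaling of the log2 changes. In limma on log2 of FPKM plus 1, the median change of the 11573 genes tested was -0.167, against 0.002 in edgeR. A gene's mean FPKM in the 2 groups can therefore differ from its stated log2 change. The steps were tested on simulated data for 18229 genes: calls were made for 8 of 57 genes set to 1.5-fold, for 31 of 73 at 2-fold, and for 50 of 70 at 4-fold, and 2 calls were false.

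Members and lists were chosen with earlier results of these data known. Per-library values are given for D, E, A and B cyclins, CDK1, CDK2, CDK4, CDK6, the 3 largest called changes of each role and called members moving against their role, and *E2F6*, *WEE1*, *FOXM1*, *FZR1*, *CDKN1A* and the 8 count ratios were added after their values were seen. Up to 3 called genes are named per further list. *CDKN1B* and the raised genes of the anaphase-promoting complex were added after their values were seen. The promoters shown were likewise chosen after the changes were seen.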

Additional observations from a re-analysis of the deposited data

How the results depend on the processing

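Of the 20 members that fell, 17 were also called lower in each of 15 alternatives (scaling, tool, filter, unit, replicate block and leaving out each library), and *CDK4*, *CDK2* and *MYBL2* were not. The 3 that rose (*CCNE2*, *CKS2*, *E2F7*) kept their calls in 14 of 15. In limma on FPKM brought to 1 sum per library, there were 0 members called higher (1 at an unadjusted p under 0.05; edgeR called 3 and DESeq2 4) and the log2 changes were 0.14, 0.05 and 0.20 for *CCNE2*, *CKS2* and *E2F7*. In that fit *LIN9* turned to -0.22 and was called lower, and the median of all genes was -0.263. Leaving out 1 library at a time gave 3 to 4 members raised and 17 to 20 lowered, and 2786 to 2953 of all genes raised and 2284 to 2550 lowered. Over all genes, 3365 were raised and 3059 lowered with TMM (52.4% of calls raised). With total-count scaling 2356 were raised and 4856 lowered (32.7% raised; median of all genes -0.182, of the members -0.54). Limma on FPKM raised 1802 genes (pseudocount 1; 29.2%) or 1803 (0.1; 29.4%), and with the common sum 1329 against 5380 lowered (19.8%). The cause was not tested.

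Same-numbered libraries barely deviated together (correlations of deviations 0.021, -0.008 and 0.044), although the last was the highest of all pairs. DMSO replicate 2 correlated best with DSF/Cu replicate 1 (0.03). All correlations were weak, so the numbers were not taken as pairs. With the replicate block, 3 members were raised and 20 lowered; *CDK2* lost its call (adjusted p = 0.0733) and *RBL2* gained one (0.0478), and of all genes 2692 were raised and 2451 lowered. Promoter counts with 150 bases before the start were 7 for the CHR, 12 for the CCAAT box, 7 for the E2F site and 0 for the heat shock element. Of all promoters, 10.3% then had a CHR, 27.5% a CCAAT box, 2.37% an E2F site and 0.293% a heat shock element. In the simulation 8 of 57 genes set to 1.5-fold were called. Its changed genes were drawn at random from all genes tested, and far fewer were changed than were called here. That share is therefore not a measure for the members themselves. A member that was not called may still differ.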
